A study of Mus musculus with 2 samples.

Results

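The 9 genes described here, Areg, Ereg, Hbegf, Vegfa, Inhba, Pdgfb, Tgfb1, Osm and Spp1, encode secreted growth factors that macrophages are known to make. They were chosen by symbol from the 32285 genes counted, with earlier results of these data known. All 9 were found in the tables and all are protein-coding. RNA was counted in single cells sorted with CD45 magnetic beads, from tumors that the human osteosarcoma line 143B formed under the skin of nude mice, which lack a thymus and so have few T cells but keep myeloid and NK cells. The mice were female and 4 weeks old at inoculation, and received 10 mg/kg of human IgG1 (control IgG) or 10 mg/kg of an antibody against CD3L1, also named ITPRIPL1 (anti-CD3L1). Each group was 1 droplet library, prepared from 3 tumors together, so that a cell cannot be traced to its tumor. Every difference between the libraries therefore had no replicate check, no p-value was computed, and the intervals given are 95% intervals that cover counting error only.

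EGF-family ligands such as amphiregulin, epiregulin and HB-EGF are made as membrane proteins, are cut free by the protease ADAM17, and act on the receptor EGFR of nearby epithelial, stromal or tumor cells. VEGF-A and PDGF-B act on vessels and on the cells around them, while TGF-beta and activin A signal through related receptor kinases and the SMAD proteins. Oncostatin M signals through the shared chain gp130, and osteopontin, the product of Spp1, binds integrins and CD44 and is abundant in tumor macrophages and in bone.

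Cells were kept with at least 500 UMIs (counted RNA molecules), over 200 and under 6000 genes, and under 5% mitochondrial UMIs, which left 8557 cells for control IgG and 11269 for anti-CD3L1. Median depth was 5526 and 8267 UMIs per cell. Cells were classed from marker genes that included none of the 9 growth factors, and a level (CPM) is the UMIs of a gene scaled to 1000000 UMIs of the class. The macrophage-like class held 769 cells of the control IgG tumors and 4585 of the anti-CD3L1 tumors. Of its 10 leading genes, 8 were markers used to define it, C1qa, C1qb and C1qc among them, so these are no check of the class. The others, Ccl8 and Syngr1, were not markers. The monocyte-like class held 1137 and 2595 cells, the neutrophil-like class 5911 and 599, and the NK cell-like class 156 and 985. A further 159 and 776 cells scored about equally as monocyte and macrophage. Ptprc, which encodes CD45, had a UMI in 95.1% and 91.1% of cells, and 26 cell barcodes occurred in both libraries.

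The libraries also differed in what surrounded the cells. The 11 neutrophil markers together made up 33.3 of every 10000 UMIs in macrophage-like cells of the control IgG tumors and 2.52 in those of the anti-CD3L1 tumors, with none of the 11 at 0 in either. In barcodes of 10 to 100 UMIs, which hold free RNA rather than cells, the same sum was 726 and 17.3 of every 10000 UMIs. The part of this difference in the results for the growth factors was not tested. Where a class as a whole lay apart, the median log2 ratio of all its genes was 0.61 in neutrophil-like, 0.19 in monocyte-like and 0.12 in NK cell-like cells, and it was 0.00 in macrophage-like cells.

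The genes are spread over the genome (coordinates from GENCODE M21, build GRCm38). Areg (5:91139599-91148432) and Ereg (5:91074622-91093646) are neighbours on chromosome 5, 45952 bases apart, and Spp1 lies further along it (5:104435118-104441050). Vegfa lies at 17:46016993-46032369, Inhba at 13:16011851-16031621, Pdgfb at 15:79995874-80014977, Tgfb1 at 7:25687002-25705077 and Osm at 11:4236420-4241026. Promoter sequences from RefSeq (GRCm38.p6) were at hand for 5 of the 9, Areg, Vegfa, Inhba, Tgfb1 and Spp1. The 250 bases before the start of 3 of them are shown, because a UMI of Areg was more often found with Inhba than without it in macrophage-like cells of both libraries, and because Spp1 had the highest ratio between the libraries in macrophage-like cells. All 3 are on the plus strand and are written 5′ to 3′, with capitals for a match. The motifs searched, on both strands, were the TATA box (TATAAA), the cAMP response element (TGACGTCA) and its first part (TGACG), which overlap, the AP-1 site (TGANTCA) and the core of the hypoxia response element (ACGTG).

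Areg, chr5:91139349-91139598: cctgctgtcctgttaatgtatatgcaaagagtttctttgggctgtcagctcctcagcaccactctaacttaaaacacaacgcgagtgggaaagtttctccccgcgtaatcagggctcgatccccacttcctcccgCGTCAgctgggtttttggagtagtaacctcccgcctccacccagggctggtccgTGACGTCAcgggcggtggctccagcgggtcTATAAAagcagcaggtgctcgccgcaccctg
Inhba, chr13:16011601-16011850: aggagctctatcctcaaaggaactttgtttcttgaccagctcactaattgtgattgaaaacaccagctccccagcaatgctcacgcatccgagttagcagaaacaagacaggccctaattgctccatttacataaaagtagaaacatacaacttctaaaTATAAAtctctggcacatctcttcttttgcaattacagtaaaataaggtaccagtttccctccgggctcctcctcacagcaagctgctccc
Spp1, chr5:104434861-104435110: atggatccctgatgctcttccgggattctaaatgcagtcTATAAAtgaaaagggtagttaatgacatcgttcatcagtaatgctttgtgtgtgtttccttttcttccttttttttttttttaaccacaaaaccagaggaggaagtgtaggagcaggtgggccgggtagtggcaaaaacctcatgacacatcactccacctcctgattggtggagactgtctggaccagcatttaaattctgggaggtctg

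Areg held TATAAA 31 to 26 bases before its start, TGACGTCA 61 to 54 bases before it, and a further TGACG 115 to 111 bases before it. In Inhba, TATAAA lay 91 to 86 bases before the start, and in Spp1 211 to 206 bases before it. Of 32851 RefSeq promoter windows of the same length, 12.4% held TATAAA, 1.55% TGACGTCA, 17.8% TGACG, 6.75% TGANTCA and 16.6% ACGTG. Inhba and Spp1 showed no match to the other 4 motifs in these windows, and the matches are descriptions of letters, not of bound factors.

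In macrophage-like cells, 3 of the 9 growth factors were at least 2-fold higher with anti-CD3L1, Spp1, Areg and Hbegf, and none was at least 2-fold lower among the 8 that reached 10 CPM in a library. Of 7838 genes with 10 CPM in macrophage-like cells, 2.59% were at least 2-fold higher and 2.28% at least 2-fold lower. The median log2 ratio of the 8 was 0.43, beside 0.00 over all 7838 genes. Because the genes were chosen with earlier results of these data known, these values describe them and do not test them against all genes. Ereg, at 9.45 CPM with control IgG and 1.01 CPM with anti-CD3L1, was below 10 CPM in both libraries and was not among the 8.

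**Figure D1:**
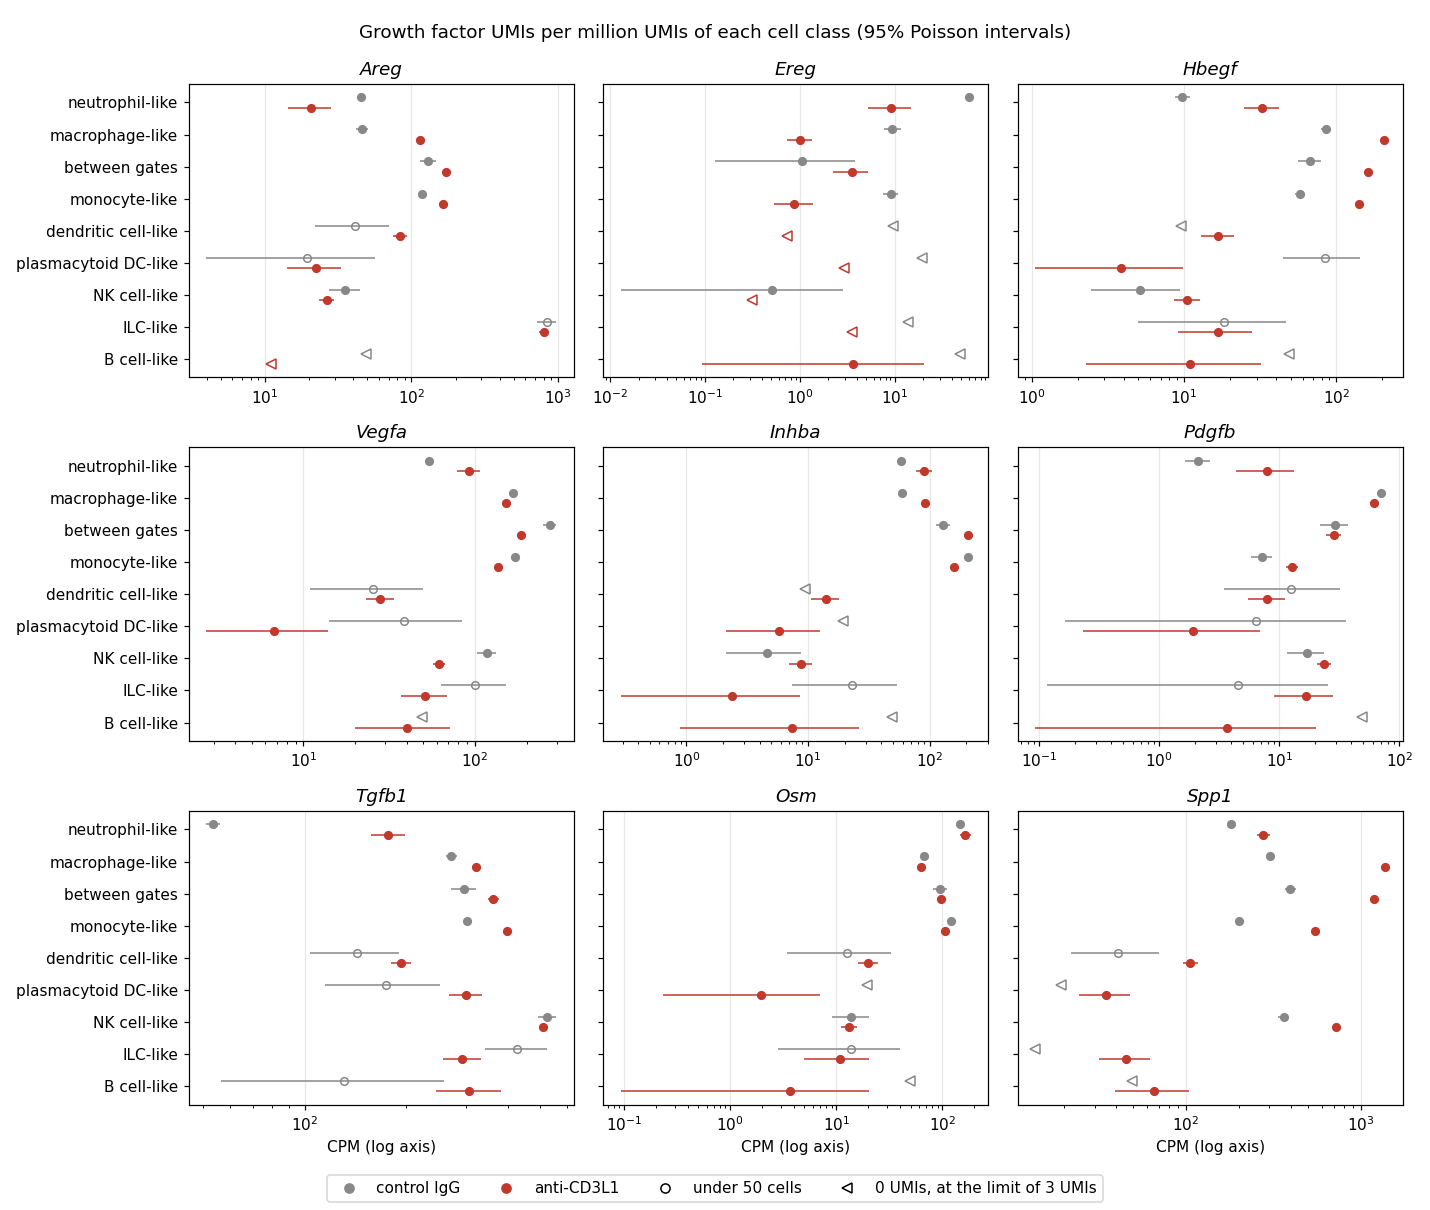
Level of each growth factor in each cell class (CPM, log axis) with control IgG (grey) and anti-CD3L1 (red), with bars for 95% Poisson intervals, open circles for classes under 50 cells and triangles for classes with 0 UMIs, drawn at the limit of 3 UMIs. Spp1 and Hbegf sit further right in red than in grey in macrophage-like and monocyte-like cells. Among classes of at least 10 cells, Pdgfb is highest in macrophage-like cells, Osm in neutrophil-like cells and Areg in innate lymphoid (ILC)-like cells.

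Spp1 encodes osteopontin, a secreted matrix protein that binds integrins and CD44. In macrophage-like cells it stood at 303 CPM (interval 292 to 314) with control IgG and at 1369 CPM (1358 to 1379) with anti-CD3L1. The ratio was 4.52 (4.36 to 4.69), with a log2 ratio of 2.18, and it stayed between 1.97 and 2.87 under every alternative run. In monocyte-like cells the levels were 201 and 544 CPM, a log2 ratio of 1.44 (1.38 to 1.495). In the cells between these classes they were 396 and 1190 CPM.

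Neutrophil-like cells held 181 and 278 CPM of Spp1, and NK cell-like cells 363 and 720 CPM. The anti-CD3L1 library was the higher one in all of these classes, but by a larger ratio in macrophage-like cells than in the others. Free RNA carried Spp1 as well, at 277.5 CPM in barcodes of 10 to 100 UMIs of the control IgG tumors and at 1072 CPM in those of the anti-CD3L1 tumors. With that profile subtracted, scaled by the neutrophil markers, the log2 ratio of Spp1 was 2.22 in macrophage-like cells and -0.10 in monocyte-like cells. The subtraction took up to 40.7% of the UMIs of monocyte-like cells with anti-CD3L1, and whether the neutrophil markers set its scale rightly was not tested. In that library these markers were 7.05 of every 10000 UMIs in monocyte-like cells. Apart from neutrophil-like cells, the other classes looked at lay between 0.769 (B cell-like) and 3.31 (plasmacytoid dendritic cell-like).

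The share of macrophage-like cells with a UMI of Spp1, after thinning each cell to 1000 UMIs, was 12.8% with control IgG and 40.1% with anti-CD3L1, a difference of 27.2 points (24.3 to 29.9). Before thinning it was 32.2% and 70.3%, at median depths of 13441 and 9431 UMIs. With anti-CD3L1 the thinned share was 2.38% in plasmacytoid dendritic cell-like cells, at a median depth of 7836 UMIs, and 5.17% in the 58 B cell-like cells, at 3300 UMIs. Neither class is taken to lack osteopontin, so these shares set no background. Of macrophage-like cells, 8.45% with control IgG and 28.0% with anti-CD3L1 held 10 or more UMIs of Spp1, up to 330 and 646 in 1 cell. The 1% of cells richest in Spp1 held 38.7% and 20.2% of its UMIs in the class, and without them the log2 ratio was 2.56.

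**Figure D2:**
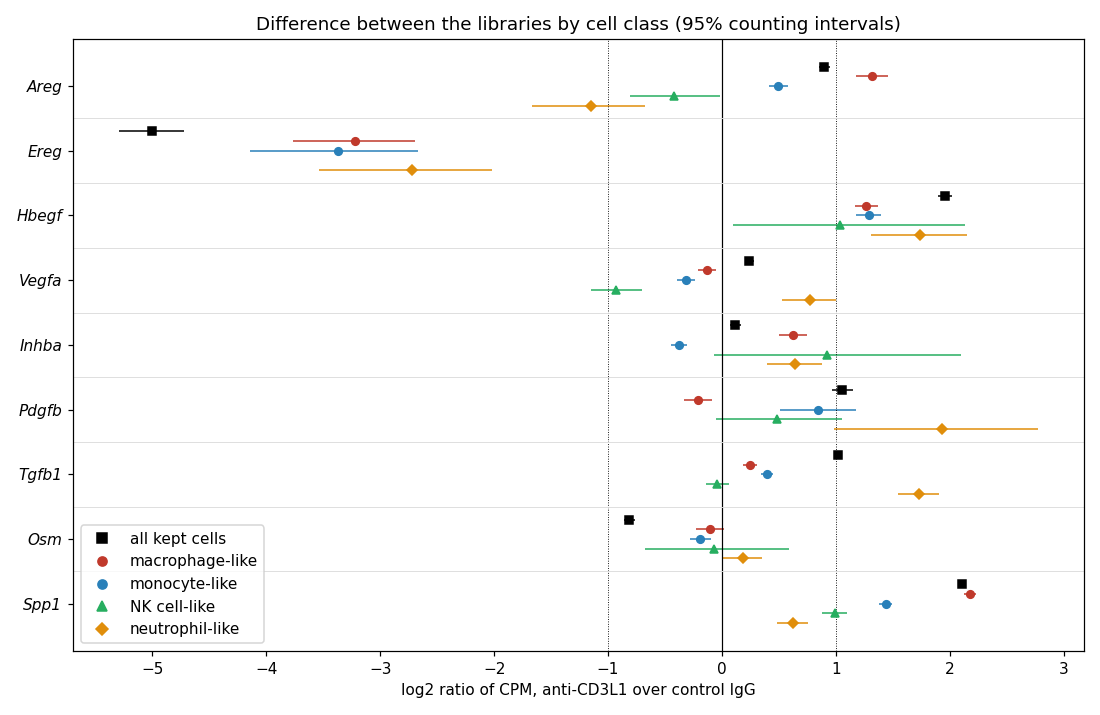
Log2 ratio of the level with anti-CD3L1 over that with control IgG for each growth factor, in all kept cells (squares) and in 4 classes, with bars for 95% counting intervals and dotted lines at 2-fold. In macrophage-like cells Spp1 (2.18), Areg (1.32) and Hbegf (1.27) lie past 2-fold, while Vegfa, Pdgfb and Osm lie a little below 0.

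Hbegf encodes HB-EGF, an EGF-family ligand that also serves as the receptor for diphtheria toxin in human cells. In macrophage-like cells its level was 84.9 CPM (79.4 to 90.7) with control IgG and 204 CPM (200.3 to 209) with anti-CD3L1, a log2 ratio of 1.27 (1.17 to 1.37). Monocyte-like cells had 57.6 and 141 CPM, a log2 ratio of 1.29 (1.18 to 1.40). The ratios were alike in these classes, and their intervals overlapped. Neutrophil-like cells held 9.73 and 32.5 CPM, NK cell-like cells 5.12 and 10.5 CPM, and dendritic cell-like cells 16.7 CPM with anti-CD3L1. Among classes of at least 50 cells, Hbegf was thus highest in macrophage-like cells of both libraries and lowest in lymphoid or dendritic ones.

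The thinned share of macrophage-like cells with a UMI of Hbegf was 8.13% and 15.1%, and that of monocyte-like cells 4.41% and 10.4%. NK cell-like cells of the anti-CD3L1 tumors stood at 0.611%, at a median depth of 8730 UMIs. Free RNA held 18.8 and 64.9 CPM of Hbegf. When the level was taken after thinning, which gives every cell the same weight, the log2 ratio in macrophage-like cells was 0.97 for Hbegf and 0.72 for Areg. Both were then under 2-fold, on a random draw that left far fewer UMIs. The mean over cells of UMIs per 10000, which also weights cells equally, gave log2 ratios of 1.201 for Hbegf and 1.10 for Areg.

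Areg encodes amphiregulin, an EGF-family ligand linked to tissue repair. In macrophage-like cells it stood at 46.1 CPM (42.1 to 50.4) with control IgG and at 115 CPM (112 to 118) with anti-CD3L1, a log2 ratio of 1.32 (1.18 to 1.45). Monocyte-like cells stood at 117 and 166 CPM, a log2 ratio of 0.50 (0.41 to 0.58). Both libraries thus held more Areg in monocyte-like than in macrophage-like cells, and the gap was narrower with anti-CD3L1. NK cell-like cells held 35.4 and 26.4 CPM and neutrophil-like cells 45.5 and 20.5 CPM, so the control IgG library was the higher one in these. The neutrophil-like value of the anti-CD3L1 tumors rested on 36 UMIs.

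Among classes of at least 10 cells, the highest Areg level was in innate lymphoid-like cells, which were classed by markers that include Il1rl1, Gata3 and Icos. These cells held 842 CPM in the 29 cells of the control IgG tumors and 803 CPM in the 140 cells of the anti-CD3L1 tumors, with intervals of 725 to 973 and 743 to 866. The 9 mast cell- or basophil-like cells of the anti-CD3L1 tumors held 856 CPM on 23 UMIs. A UMI of Areg was found in 62.1% and 60% of the innate lymphoid-like cells, and in 41.4% and 39.6% after thinning. In macrophage-like cells the thinned share was 3.28% and 5.73%, a difference of 2.46 points (0.80 to 3.81). Plasmacytoid dendritic cell-like cells of the anti-CD3L1 tumors were at 2.38%.

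Areg RNA was concentrated in few cells. The richest 1% of macrophage-like cells held 61.3% of its UMIs with control IgG and 36.0% with anti-CD3L1. Of the cells of the class, 1.56% and 3.47% (12 and 159 cells) had 10 or more. Without these richest cells the log2 ratio was 2.04, so the direction did not rest on them. The same richest 1% held 25.8% and 33.8% in monocyte-like cells, and 73.9% and 56.7% in NK cell-like cells, where it was 2 and 10 cells.

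Ereg encodes epiregulin, a further EGF-family ligand and the neighbour of Areg on chromosome 5. Unlike Areg, it was lower with anti-CD3L1 in macrophage-like and monocyte-like cells, while in neutrophil-like cells both were lower. Over all kept cells it stood at 35.0 CPM with control IgG and at 1.09 CPM with anti-CD3L1, a 32-fold lower level. Neutrophil-like cells held 2013 of the 2355 Ereg UMIs counted with control IgG, and 107 were counted with anti-CD3L1 over all classes. Within neutrophil-like cells the level was 60.3 CPM with control IgG and 9.12 CPM, or 16 UMIs, with anti-CD3L1.

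In macrophage-like cells Ereg stood at 9.45 and 1.01 CPM, which is 98 and 45 UMIs, and in monocyte-like cells at 9.05 and 0.877 CPM, or 131 and 19 UMIs. NK cell-like cells had 1 UMI with control IgG and 0 with anti-CD3L1, which allows up to 0.312 CPM. Dendritic cell-like cells had 0 in both, which allows up to 9.49 and 0.725 CPM. Before thinning, 2.34% and 0.589% of macrophage-like cells had a UMI of Ereg, at median depths of 13441 and 9431 UMIs. After thinning the shares differed by -0.305 points. With control IgG, 1 cell alone held 39 of the 98 UMIs of the class. The richest 1% of macrophage-like cells, 8 cells with control IgG, held 89.8% of its Ereg UMIs there and 100% with anti-CD3L1. Without them the levels were 0.977 and 0 CPM. In monocyte-like cells the richest 1% held 67.9% and 100%, and the levels without them were 2.94 and 0 CPM. Free RNA held 29.4 CPM of Ereg with control IgG and 1.06 CPM with anti-CD3L1. When cells with 3 or more markers of another class were left out, the log2 ratio in macrophage-like cells went from -3.22 to 0.17. The levels were then 0.951 and 1.07 CPM, and 84.9% of the control IgG cells of the class had been left out. The control IgG level was 9.45 CPM without that rule, so the lower level with anti-CD3L1 was not kept under it. Too few control IgG UMIs were left to give a usable ratio, and the reason for the fall was not tested. With free RNA subtracted instead, the log2 ratio of Ereg was -3.08 in macrophage-like and -3.35 in monocyte-like cells.

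**Figure D3:**
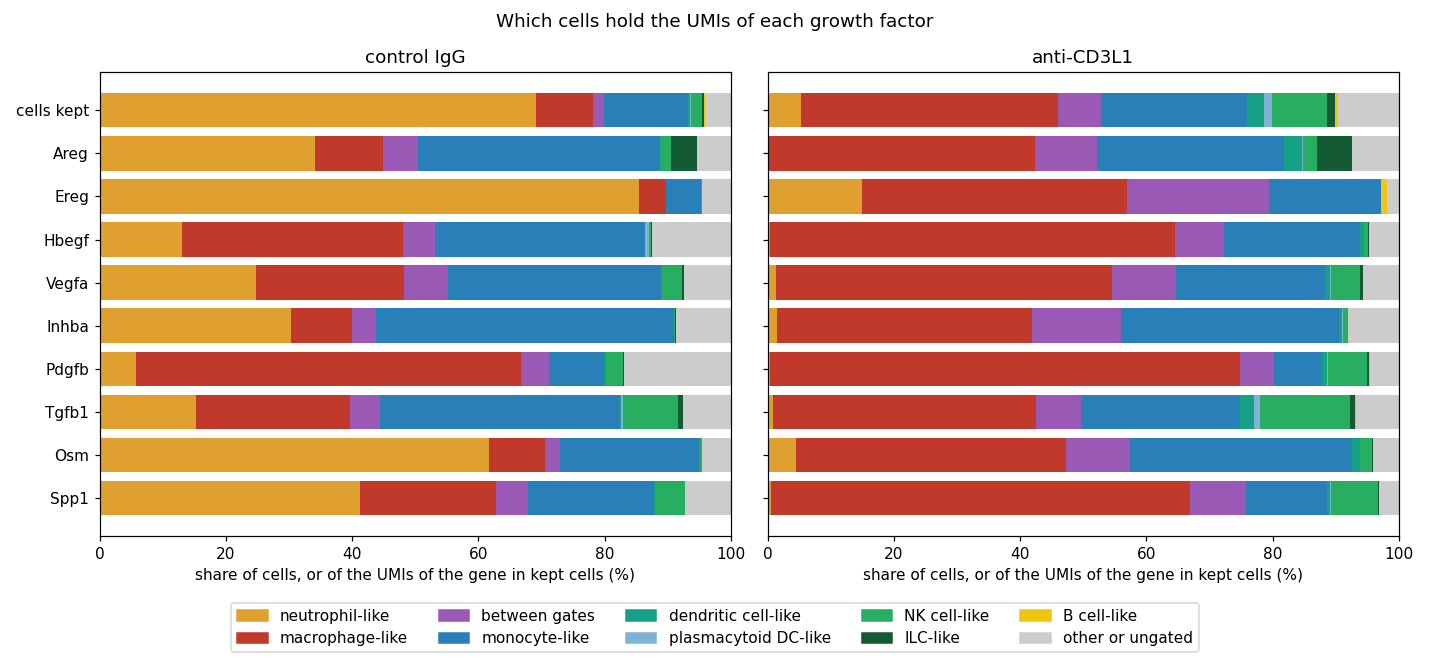
Share of kept cells (top bar) and of the UMIs of each growth factor that each cell class held, in percent, for the control IgG library (left) and the anti-CD3L1 library (right). Neutrophil-like cells hold most of the Ereg and Osm UMIs of the control IgG tumors, and macrophage-like cells hold most of the Pdgfb, Spp1 and Hbegf UMIs of the anti-CD3L1 tumors.

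Vegfa encodes VEGF-A, which drives the growth of blood vessels and is induced by low oxygen. Macrophage-like cells held 166 CPM (158 to 174) with control IgG and 151 CPM (148 to 155) with anti-CD3L1, a log2 ratio of -0.13 (-0.21 to -0.06). Monocyte-like cells held 171 and 137 CPM, a log2 ratio of -0.31 (-0.39 to -0.24). NK cell-like cells held 117 and 61.6 CPM, a log2 ratio of -0.93 (-1.15 to -0.70). The control IgG library was thus the higher one in each of these, by least in macrophage-like cells. In neutrophil-like cells Vegfa was 54.2 and 92.4 CPM, a log2 ratio of 0.77, close to the median of 0.61 for all genes of that class. Among classes of at least 10 cells, the highest level was in the cells between monocyte and macrophage, at 273 and 186 CPM. The thinned share of macrophage-like cells with a UMI was 15.7% and 12.9%, a difference of -2.83 points (-5.77 to -0.12).

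Pdgfb encodes the B chain of platelet-derived growth factor, which recruits pericytes and fibroblasts. Of the 9 genes it had the largest share of its UMIs in macrophage-like cells in both libraries. With control IgG these cells held 60.9% of the Pdgfb UMIs, beside 8.99% of the cells and 15.4% of all UMIs. With anti-CD3L1 they held 74.4%, beside 40.7% of the cells and 45.3% of all UMIs. Macrophage-like cells stood at 71.0 CPM (65.9 to 76.3) and 61.3 CPM (59 to 63.6), with a log2 ratio of -0.21 (-0.33 to -0.09). Monocyte-like cells stood at 7.18 and 12.9 CPM, on 104 and 279 UMIs, a log2 ratio of 0.84 (0.51 to 1.18). With free RNA subtracted, no Pdgfb was left in monocyte-like cells of the anti-CD3L1 tumors, so that ratio had no value. NK cell-like cells stood at 16.9 and 23.6 CPM and neutrophil-like cells at 2.10 and 7.98 CPM. The difference between the libraries in macrophage-like cells was small and turned to a log2 ratio of 0.19 when the cells were thinned to 1000 UMIs. That value rests on a random draw with far fewer UMIs, and the mean over cells of UMIs per 10000 gave -0.14. The thinned shares, 4.98% and 5.58%, differed by less than counting error (0.60 points, -1.31 to 2.20).

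Inhba encodes the subunit of activin A. Monocyte-like cells held more than macrophage-like cells in both libraries, 207 against 59.2 CPM for control IgG and 160 against 91.2 CPM for anti-CD3L1. In macrophage-like cells the log2 ratio was 0.62 (0.50 to 0.75) and in monocyte-like cells -0.37 (-0.45 to -0.30). Neutrophil-like cells held 57.7 and 90.1 CPM, a log2 ratio of 0.64, at the median of that class. NK cell-like cells held 4.61 and 8.72 CPM. The cells between monocyte and macrophage held 129 and 206 CPM, and there the anti-CD3L1 library had the highest Inhba level of its classes.

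The thinned share with a UMI of Inhba was 5.50% and 6.48% in macrophage-like cells, a difference within counting error (0.98 points, -1.01 to 2.67), and 13.7% and 9.42% in monocyte-like cells (-4.32 points, -6.73 to -2.03). Plasmacytoid dendritic cell-like cells of the anti-CD3L1 tumors had 0 of 126 cells with a UMI after thinning, and 3 of 126 before it. Over monocyte-like and macrophage-like cells joined, the log2 ratio of Inhba was -0.24. Gated on C1qa, C1qb and C1qc alone, macrophage-like cells held 27.8 and 85.5 CPM, a log2 ratio of 1.62. With free RNA subtracted the log2 ratio in monocyte-like cells was 0.05.

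Tgfb1 encodes TGF-beta 1, which cells release in a latent form. It was spread widely. Among classes of at least 10 cells, NK cell-like cells had the highest level, 524 CPM with control IgG and 509 CPM with anti-CD3L1, which differed by less than counting error (log2 ratio -0.04, -0.14 to 0.06). Macrophage-like cells stood at 272 and 322 CPM, a log2 ratio of 0.24 (0.19 to 0.30). Monocyte-like cells stood at 304 and 398 CPM, a log2 ratio of 0.39 (0.34 to 0.44), of which 0.19 was the median of all genes of the class. Neutrophil-like cells stood at 53.4 and 177 CPM, a log2 ratio of 1.73 beside the class median of 0.61. The thinned share of macrophage-like cells was 21.9% and 27.7%, while the unthinned one was 88.9% and 85.1%. The libraries thus changed order with thinning, and control IgG cells of this class were the deeper ones.

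Osm encodes oncostatin M, an IL-6 family cytokine. Neutrophil-like cells had the highest level of the classes with at least 10 cells, 144.8 CPM with control IgG and 164 CPM with anti-CD3L1, and held 61.7% and 4.44% of its UMIs. Monocyte-like cells stood at 120 and 105 CPM (log2 ratio -0.19, -0.28 to -0.10) and macrophage-like cells at 67.3 and 62.5 CPM (-0.11, -0.23 to 0.01). The latter log2 ratio was 0.25 with each cell thinned to 1000 UMIs. NK cell-like cells stood at 13.8 and 13.2 CPM. The order of the classes was the same in both libraries, neutrophil-like, monocyte-like, macrophage-like and then NK cell-like. Over all cells the log2 ratio was -0.81, below that of each of these classes. Neutrophil-like cells were 69.1% of the kept cells with control IgG and 5.32% with anti-CD3L1, and held 49.6% and 1.79% of all UMIs.

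The other classes differed in which of the 9 passed 2-fold. In monocyte-like cells 2 of 8 with at least 10 CPM were at least 2-fold higher with anti-CD3L1, Spp1 and Hbegf, beside 4.67% of 7474 genes, and 0 were at least 2-fold lower, beside 2.11%. In NK cell-like cells 1 of 7 was at least 2-fold higher, Hbegf with 10 UMIs with control IgG, beside 3.98% of 8095 genes, and 0 were lower, beside 1.49%. In neutrophil-like cells 2 of 8 were at least 2-fold higher, Hbegf and Tgfb1, beside 30% of 6349 genes, and 2 were at least 2-fold lower, Areg and Ereg, beside 2.77%.

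Macrophage-like cells were not uniform in these genes. They were split into low, middle and high tertiles by their summed C1qa, C1qb and C1qc UMIs per 10000, with bounds set over both libraries, which put 421, 181 and 167 control IgG cells and 1364, 1603 and 1618 anti-CD3L1 cells in the tertiles. With anti-CD3L1 Areg stood at 177, 142 and 48.9 CPM from the low to the high tertile, Inhba at 144, 107 and 42.1 CPM and Spp1 at 2040 (2014 to 2066), 1326 and 964 CPM. Pdgfb ran the other way, at 40.02, 55.5 and 80.4 CPM. Hbegf was close to level in this library, at 213, 204 and 199.99 CPM.

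With control IgG Inhba stood at 104, 25.5 and 2.72 CPM, Areg at 70.6, 29.7 and 12.8 CPM, Spp1 at 396, 284 and 132 CPM and Pdgfb at 48.7, 69.1 and 118 CPM. The directions were the same as with anti-CD3L1 for these 4 genes. Within each tertile Spp1 was the higher with anti-CD3L1, with log2 ratios of 2.36, 2.22 and 2.87, and so was Areg, with 1.33, 2.26 and 1.93. For Inhba the log2 ratio was 0.47, 2.07 and 3.95, the last on 7 UMIs with control IgG. Pdgfb was the lower one in each tertile, with -0.28, -0.32 and -0.55.

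Macrophage-like cells were also split by a UMI of Folr2, which, like C1qa, C1qb and C1qc, was a marker used to define the class. Cells were not thinned for this split, and those with Folr2 were the deeper ones. Median depth with and without it was 15387 and 12593.5 UMIs for control IgG, and 10624.5 and 8599 UMIs for anti-CD3L1. The part of depth in this split was not tested. With anti-CD3L1 Areg stood at 80.5 CPM with Folr2 and 141 CPM without, and Inhba at 62.6 and 114 CPM, but Spp1 at 1663 and 1138 CPM. With control IgG Spp1 stood at 266 CPM with Folr2 and 322 CPM without, so its order between the subsets was not the same in both libraries. Pdgfb stood at 69.1 CPM with Folr2 and 55.2 CPM without for anti-CD3L1. For control IgG it stood at 64.7 CPM (56.5 to 73.6) with Folr2 and 74.2 CPM (67.9 to 81.0) without. The control IgG intervals overlap, so a change of order is not shown for Pdgfb.

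**Figure D4:**
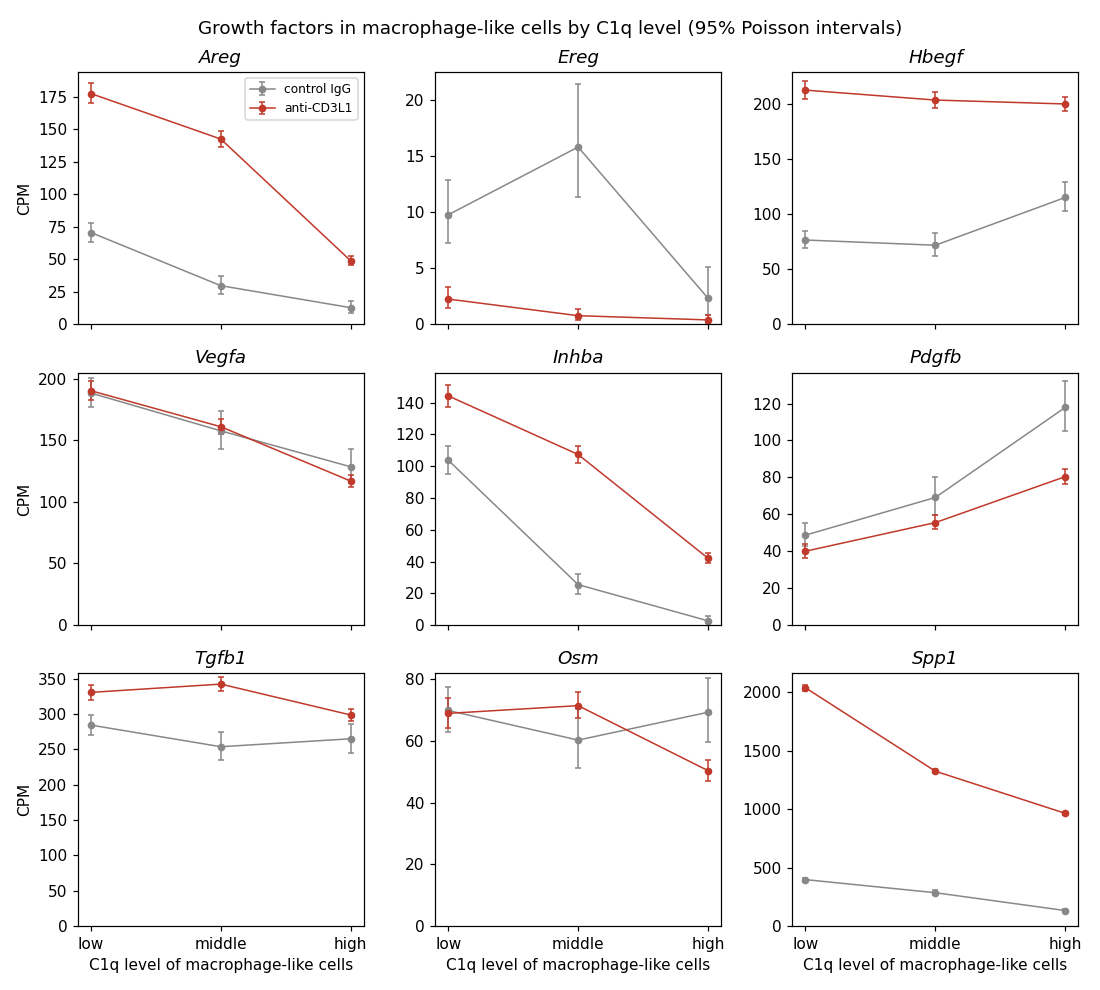
Level (CPM, linear axis from 0) of each growth factor in macrophage-like cells of low, middle and high C1q level, with control IgG (grey) and anti-CD3L1 (red), with bars for 95% Poisson intervals. Areg, Inhba and Spp1 go down from low to high C1q in both libraries and Pdgfb goes up.

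The growth factors were also compared cell by cell, with each cell thinned to 1000 UMIs. Among macrophage-like cells of the anti-CD3L1 tumors, 294 had a UMI of Inhba. Of these, 13.3% also had a UMI of Areg, beside 5.21% of the cells without Inhba. For Hbegf the shares were 29.6% and 14.1%, for Vegfa 20.1% and 12.4%, and for Spp1 55.8% and 39.0%. Pdgfb was the exception, since 1.70% of Inhba cells had a UMI of it, beside 5.85% of the others, on 5 UMIs. In monocyte-like cells 244 cells had a UMI of Inhba, and Areg was found in 14.8% of them and in 7.04% of the rest.

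Not all of these pairs went the same way with control IgG. There 42 macrophage-like cells had a UMI of Inhba, of which 11.9% had one of Areg, beside 2.77% of the others, and 4.76% one of Hbegf, beside 8.32%, on 2 UMIs. Of the 156 monocyte-like cells with Inhba, 5.13% had a UMI of Areg, beside 6.84% of the others. Cells of a library share its free RNA, so the shares are given as a description.

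**Figure D5:**
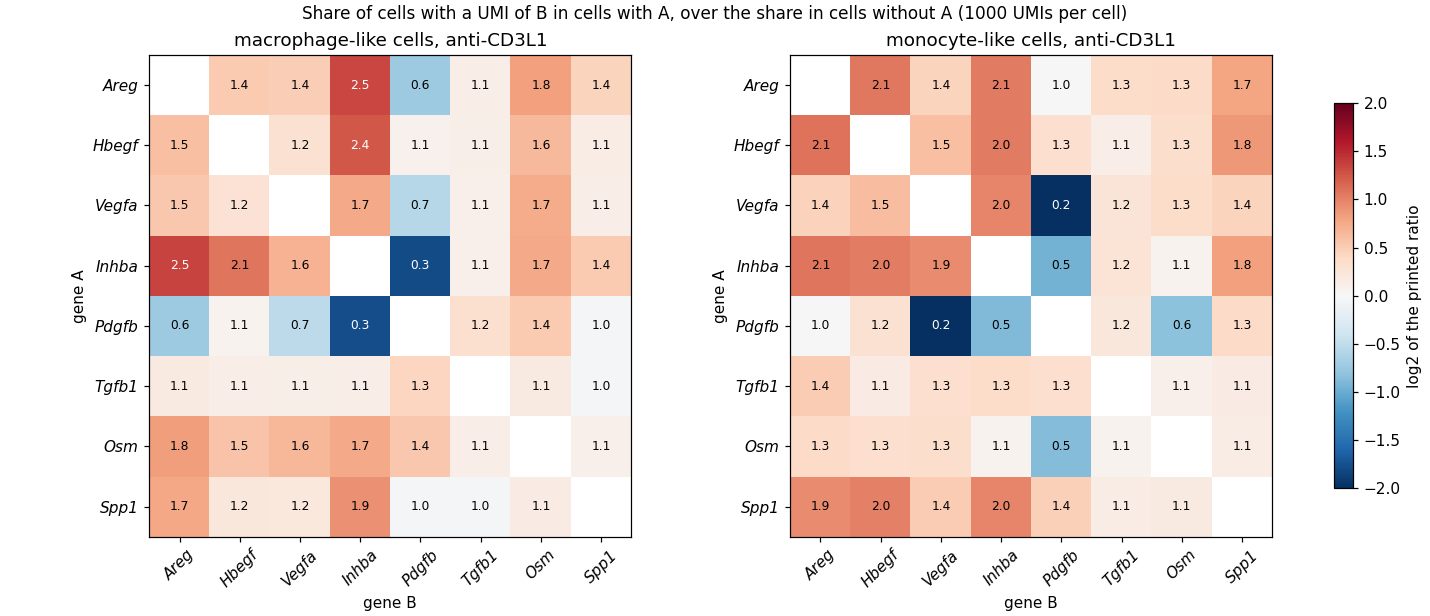
Share of cells with a UMI of gene B among cells with gene A, divided by the share among cells without A, for macrophage-like (left) and monocyte-like (right) cells of the anti-CD3L1 tumors thinned to 1000 UMIs, printed in each square and colored by its log2. Inhba goes with Areg and Hbegf at ratios of 2.0 to 2.5, and with Pdgfb at 0.3 and 0.5.

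Over the 14 groups of a class in a library with at least 50 cells, the genes whose log2(CPM + 1) was most like each growth factor were found among 8837 genes with 20 CPM in a group. Hbegf was most like Plau (r = 0.97), Trf and Gas2l3, and Osm most like Emilin2 (0.97), Myo1f and Card19. Inhba was most like Mfsd1 (0.96), Tlr2 and Apoc2, and Tgfb1 most like Acly (0.96), Bcap31 and Eif4g3. For Vegfa the first 3 were Metrnl (0.93), Rnpep and Phlda1, for Areg Tiam1 (0.92), Abhd17c and Stimate, and for Pdgfb Ptprm (0.91), Arhgap10 and Tnfsf12. For Ereg they were Bnip3 (0.90), Tmbim4 and Lipg, and for Spp1 Tspan5 (0.87), Comtd1 and Psenen. Among the growth factors themselves the closest pairs were Osm with Inhba (0.89) and Inhba with Hbegf (0.82), and the most opposed were Tgfb1 and Ereg (-0.71). The groups come from 2 libraries and share their depth and free RNA, so these values are descriptions.

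Of 74 further genes of the same pathways (ligands, receptors, carriers and proteases), 35 reached 10 CPM in macrophage-like cells, of which 3 were at least 2-fold higher with anti-CD3L1, beside 2.59% of all genes of the class, and 1 at least 2-fold lower, beside 2.28%. The higher ones were Kitl, which encodes stem cell factor, at 1.06 and 20.7 CPM on 11 and 919 UMIs, Kdr, which encodes the VEGF-A receptor VEGFR2, at 11.4 and 26.9 CPM, and Igf1, which encodes insulin-like growth factor 1, at 11.6 and 25.8 CPM. The lower one was Nrg1, which encodes the EGF-family ligand neuregulin 1, at 162 and 69.3 CPM. By list, EGF-family genes had 0 of 5 higher and 1 lower, VEGF and PDGF genes 1 of 6 higher, and the other growth factors 2 of 6 higher. Among the 9 TGF-beta and activin genes, the 4 genes of the oncostatin M list and the 5 osteopontin receptors, 0 were 2-fold higher or lower.

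Several further genes that process or receive these factors were under 2-fold apart in macrophage-like cells. Adam17, the protease that sheds EGF-family ligands, was at 310 and 258 CPM. Cd44, an osteopontin receptor, was at 1374 and 1219 CPM, Itgav, an integrin chain that binds osteopontin and latent TGF-beta, at 434 and 545 CPM, and Tgfbr1, a TGF-beta receptor chain, at 272 and 283 CPM. Socs3, a target and inhibitor of gp130 signaling, was at 401 and 222 CPM, a log2 ratio of -0.85. Nrp1, a co-receptor for VEGF-A, was at 35.5 and 59.6 CPM.

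In monocyte-like cells 34 of the 74 genes reached 10 CPM, with 6 at least 2-fold higher, beside 4.67% of all genes of the class, and 4 at least 2-fold lower, beside 2.11%. The higher ones were Nrp1 (12.9 and 52.0 CPM, log2 ratio 2.02), Flt1, Itga9, Il6st, Kdr and Hgf. The lower ones were Fst, which encodes the activin inhibitor follistatin (15.7 and 2.17 CPM, log2 ratio -2.86), Lif, Acvr1b and Socs3. Il6st encodes gp130, the chain through which oncostatin M signals, and stood at 27 and 63.7 CPM.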

How the data were processed

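The UMI counts used here were deposited by the authors as 1 matrix per library for all barcodes, with no cell call, made with Cell Ranger 7.1.0. The submitters' processing notes also list Seurat 5.1.0 and the build GRCm39, and coordinates given here are from GRCm38 and are not those of that build. A deposited table of macrophage genes, with the authors' fold changes and p-values, was not used.

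Cells were kept by the limits given above, without a doublet caller. Each of 96 marker genes of 13 cell types was scored per cell as the natural log of 1 plus its UMIs per 10000, divided by the 75th percentile of its values above 0 and capped at 1. The mean of the 5 highest markers of a class was its score. A cell took the class with the highest score if that was at least 0.3, led the next by at least 0.1 and had at least 3 markers detected. Cells with monocyte and macrophage leading within 0.1 formed the class between them, and 350 and 1035 cells had no class. These score limits were set after the data were seen. Levels were taken from the summed UMIs of each class.

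Intervals are exact Poisson for CPM and exact binomial (Clopper-Pearson) for shares and for ratios of CPM. Those for a difference in share are approximate and combine the exact intervals of both shares by the square-and-add method. Values of 0 UMIs are drawn at a limit of 3 UMIs. Shares were taken after thinning to 1000 UMIs at random, which left out 6 control IgG and 50 anti-CD3L1 macrophage-like cells. A gene counted as higher or lower at 2-fold with at least 10 CPM in a library. The 9 genes and all lists were chosen with earlier results of these data known. Beyond the 9, genes were named from the lists if they reached 10 CPM, or as the 3 most alike. Alternatives changed the cell limits, the gate, the scaling, free RNA, doublets and depth. The intervals, the thinning and the gate were run on simulated data. Counts for the intervals were Poisson draws without added variation between cells. Cells for the gate were drawn from the summed profile of their own class. These runs therefore cannot show how the intervals or the gate perform on the real cells. Python 3.11.15, numpy 2.4.6, scipy 1.17.1, pandas 2.3.3 and matplotlib 3.10.9 were used.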

Additional observations from a re-analysis of the deposited data

Results flagged for a closer look

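Macrophage-like cells were set against monocyte-like and NK cell-like cells only, and the libraries differed in opposite directions there for 3 of the genes. These differences between classes were not tested, since each group was 1 library. Other classes were not part of this count, and opposite directions occurred there too. Vegfa, for example, had a log2 ratio of -0.13 in macrophage-like and of 0.77 in neutrophil-like cells. Areg had a log2 ratio (anti-CD3L1 over control IgG) of 1.32 in macrophage-like cells and of -0.42 in NK cell-like cells. In the latter the interval was -0.81 to -0.02 on 69 and 254 UMIs. There, 2 cells held 73.9% of the Areg UMIs with control IgG, and 10 cells held 56.7% with anti-CD3L1. The thinned share of NK cell-like cells with a UMI of Areg differed by -0.19 points. Inhba had a log2 ratio of 0.62 in macrophage-like cells and of -0.37 in monocyte-like cells. Pdgfb had a log2 ratio of -0.21 in macrophage-like cells and of 0.84 in monocyte-like cells, where its level was 7.18 and 12.9 CPM. With free RNA subtracted, no Pdgfb was left in monocyte-like cells of the anti-CD3L1 tumors, while some was left with control IgG. The higher monocyte-like level with anti-CD3L1 was therefore not kept under that subtraction, whose scale was not tested.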

How the results depend on the processing

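No paired analysis was possible because each group has 1 library. For macrophage-like and monocyte-like cells, 204 log2 ratios of the 9 genes were recomputed under the alternatives. Of these, 120 stayed inside the counting interval of the main value and 74 moved outside it. A further 10, all with a main interval that left out 0, changed sign. The counting error of the alternative value itself, which is larger where fewer UMIs remain, did not enter these labels. Among the 74, Osm in macrophage-like cells, whose interval held 0, went from -0.11 to 0.25 with thinned cells, and 3 further ratios had no value because a library was at 0. That library was anti-CD3L1 each time, for Ereg in both classes without the richest 1% of cells and for Pdgfb in monocyte-like cells with free RNA subtracted. Of the 10, the sign changed for Inhba and Pdgfb in macrophage-like cells when these and monocyte-like cells were 1 class (-0.24 and 0.39), and for Pdgfb with each cell thinned to 1000 UMIs (0.19). It changed in monocyte-like cells with free RNA subtracted for Inhba (0.050), Osm (0.11) and Spp1 (-0.10). With cells holding 3 or more markers of another class left out, it changed for Ereg in macrophage-like cells (0.17, at 0.951 and 1.07 CPM). The control IgG level of Ereg there was 9.45 CPM without that rule, and too few control IgG UMIs were left to give a usable ratio. Under the same rule it changed for Inhba (0.23), Pdgfb (-0.10) and Osm (0.012) in monocyte-like cells. That rule removed 84.9% of macrophage-like and 92.3% of monocyte-like cells of control IgG, but 6.80% and 15.95% of those of anti-CD3L1. The subtraction took free RNA to be at most 14.5% of the UMIs of macrophage-like and 40.7% of those of monocyte-like cells of anti-CD3L1. Without thinning, the difference in share of cells with Tgfb1 was -3.86 points in macrophage-like and -3.77 points in monocyte-like cells. Of the 9 genes, the number at least 2-fold higher in macrophage-like cells went from 3 to 1 with thinned cells, to 2 with the marker rule above or the joined class, and to 4 when gated on C1qa, C1qb and C1qc alone. In monocyte-like cells it went from 2 to 1 with free RNA subtracted or with the marker rule, and to 3 with a stricter gate. The number at least 2-fold lower went from 0 to 1 in macrophage-like cells with a stricter gate and in monocyte-like cells with thinning. It did so in both classes with totals that leave out neutrophil markers and the 50 most abundant genes. Each time the gene was Ereg, at 10.4 to 12.3 CPM with control IgG and so past the minimum of 10 CPM. Of the pathway genes in macrophage-like cells, 8 were higher and 7 lower at 1.5-fold, and 7 and 13 with no minimum CPM. In monocyte-like cells 11 were higher at 1.5-fold, and with no minimum CPM 15 were higher and 8 lower. The shares over all genes were not computed under any alternative, so these counts and those of the 9 genes above cannot be set beside them. The cause of the other changes was not tested, except that a lower fold and no minimum let more genes pass. With 1 library per group, treatment, tumor set and library cannot be told apart, and classes under 50 cells give wide intervals.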

Other observations

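Receptors for some of these growth factors were also found outside the macrophages, and the genes of this paragraph were chosen after their values were seen. Egfr, the receptor of the EGF-family ligands, had 11 and 40 UMIs in macrophage-like cells (1.06 and 0.901 CPM), and 38 UMIs in the 126 plasmacytoid dendritic cell-like cells of the anti-CD3L1 library (36.7 CPM). The 34 fibroblast-like cells of that library, which had passed the CD45 sort, held Egfr at 276 CPM, Pdgfra at 273 CPM, Pdgfrb at 143 CPM and Osmr, the oncostatin M receptor, at 159 CPM. The same 34 cells held 730 CPM of Spp1, 153 CPM of Hbegf and 131 CPM of Vegfa, and 14.2 CPM of Areg on 9 UMIs. The 1 cell richest in each gene held 46.0% of the Spp1 UMIs and 77.8% of the Areg UMIs. The control IgG library had 2 fibroblast-like cells, so no comparison was made.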
